A study of Mus musculus with 12 samples.

Results

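The genes described here make, break down, carry and sense prostaglandins: the cyclooxygenases Ptgs1 and Ptgs2, the terminal synthases Ptges and Ptgds, the degrading enzyme Hpgd, the carrier Slco2a1 and the receptors Ptger2, Ptger3 and Ptger4. They were chosen by symbol, and all 9 were found among the 45859 genes of the deposited tables. RNA was measured in lens cells (LCs) left on the lens capsule when the fiber cells were taken out of the lens through a cut in the cornea, an operation used in mice to model cataract surgery, with 0 h and 24 h the time post-cataract surgery (PCS). WT mice were C57BL/6, and β8ITG-cKO mice, of a mixed C57BL/6 and 129S1/Sv background, carried a floxed Itgb8 allele that the MLR10-cre transgene recombines in LCs from the lens vesicle stage on; per the methods that Cre line had been backcrossed to C57BL/6<har>. All mice were adults of 2 months and all had surgery, and each of the 4 groups (WT 0 h, WT 24 h, β8ITG-cKO 0 h and β8ITG-cKO 24 h) had 3 libraries, each made from pooled capsules. Genotype and strain cannot be told apart in this design, and whether WT mice carried the Cre transgene was not stated.

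Prostaglandins are short-lived lipids that cells make from arachidonic acid at sites of injury. A phospholipase frees arachidonic acid from membranes, a cyclooxygenase turns it into prostaglandin H, and a terminal synthase makes that into prostaglandin E, D, F or I or into thromboxane, each with receptors of its own on nearby cells. Ptgs1 is the cyclooxygenase that many cells make all the time and Ptgs2 the one that cytokines, growth factors and wounding induce, while Slco2a1 brings prostaglandins back into cells and Hpgd inactivates them.

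The values were FPKM (fragments scaled by transcript length and by library size), so genes can be compared with each other. Summed FPKM ran from 4.47e+05 to 7.4e+05 per library, and the 10 highest genes held 36% to 49.6% of it. Read totals were not used here, and the steps between low values gave relative depths of 0.873 to 1.1. The lens epithelium markers summed to 13600 to 40400 FPKM in WT 0 h and 18000 to 21700 FPKM in WT 24 h libraries. In β8ITG-cKO they went from 40400 to 43200 FPKM at 0 h down to 11600 to 14100 FPKM at 24 h. Most of that sum was Cryaa and Cryab, and WT 0 h replicate 2 had the lowest WT 0 h sum. The lens fiber cell markers went from 2150 to 2480 FPKM at 0 h down to 218 to 430 FPKM at 24 h. Photoreceptor markers stood highest in WT 0 h replicate 2, at 1160 FPKM, and in the β8ITG-cKO 24 h libraries, at 855 to 999 FPKM. Cryaa, a major lens crystallin, had a listed value of 0 in WT 0 h replicate 2 but 8385.01 FPKM or more elsewhere, so a listed 0 can also stand for an estimate that failed. Gene-level Itgb8, which covers all exons, was 7.26 to 10.8 FPKM in WT and 4.58 to 7.31 FPKM in β8ITG-cKO LCs at 0 h. At 24 h it was 8.38 to 9.58 FPKM in WT and 9.28 to 11.8 FPKM in β8ITG-cKO LCs. The ranges overlapped at both times, and so it does not separate the genotypes. Per the paper, PCR of lens DNA and immunofluorescence showed the deletion.

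A start site is shown for each of 4 of the genes because their transcripts behaved differently: the pair of cyclooxygenases, the carrier that rose beside Ptgs2, and the synthase that stayed high throughout. Each window is 300 bases long, 250 before and 50 after a RefSeq start, from GRCm38.p6, and all 9 genes had one. For Ptgs1, Ptges, Slco2a1 and Ptgds the RefSeq span of the gene begins further upstream, so its outermost start is not covered. The span of Ptgs1 begins at chr2:36216742 and that of Slco2a1 at chr9:103007061. Capitals mark matches on either strand to 8 short motifs: the TATA box core TATAAA, the cyclic AMP response element TGACGTCA, the E-box CACGTG, the AP-1 motif TGANTCA, the NF-κB motif, the C/EBP motif TTNNGNAA and the Smad motif CAGACA, with TGACGT, which lies within the cyclic AMP response element, as a shorter form of it. The windows are chr1:150099781-150100080 (plus strand) for Ptgs2, chr2:36230176-36230475 (plus) for Ptgs1, chr9:103008237-103008536 (plus) for Slco2a1 and chr2:25469700-25469999 (minus) for Ptgds.
Ptgs2: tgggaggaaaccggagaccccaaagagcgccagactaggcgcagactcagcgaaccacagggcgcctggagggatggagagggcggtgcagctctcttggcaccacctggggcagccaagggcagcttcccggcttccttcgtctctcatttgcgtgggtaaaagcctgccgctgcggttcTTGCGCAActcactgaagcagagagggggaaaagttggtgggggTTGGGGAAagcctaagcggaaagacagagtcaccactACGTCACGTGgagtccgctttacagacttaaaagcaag
Ptgs1: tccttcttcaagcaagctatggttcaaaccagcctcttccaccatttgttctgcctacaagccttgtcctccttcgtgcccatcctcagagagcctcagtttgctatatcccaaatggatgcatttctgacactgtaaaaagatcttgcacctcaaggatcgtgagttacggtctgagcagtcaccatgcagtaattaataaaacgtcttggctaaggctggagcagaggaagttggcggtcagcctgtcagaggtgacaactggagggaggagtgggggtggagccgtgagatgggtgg
Slco2a1: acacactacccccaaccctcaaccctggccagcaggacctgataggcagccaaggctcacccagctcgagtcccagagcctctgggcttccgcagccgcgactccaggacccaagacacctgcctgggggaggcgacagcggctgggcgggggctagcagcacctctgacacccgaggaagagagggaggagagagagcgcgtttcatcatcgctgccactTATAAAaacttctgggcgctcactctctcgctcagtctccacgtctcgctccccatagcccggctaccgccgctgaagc
Ptgds: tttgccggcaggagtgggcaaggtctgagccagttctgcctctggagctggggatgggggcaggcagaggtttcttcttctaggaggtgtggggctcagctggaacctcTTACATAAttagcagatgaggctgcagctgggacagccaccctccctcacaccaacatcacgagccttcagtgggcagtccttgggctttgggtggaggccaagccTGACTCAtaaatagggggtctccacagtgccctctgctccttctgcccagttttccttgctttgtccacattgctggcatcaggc
The Ptgs2 window held TTGCGCAA at bases 182 to 189 and TTGGGGAA at bases 226 to 233, both matches to TTNNGNAA. Near its end, ACGTCA at bases 263 to 268, a match to TGACGT on the other strand, overlapped the E-box CACGTG at bases 267 to 272. TTNNGNAA is common, in 40.7% of the 32851 promoters, TGACGT was in 7.51% and CACGTG in 7.15%. None of the motifs was found in the Ptgs1 window, which lies inside the span of the gene and leaves out its outermost start. The Slco2a1 window held TATAAA at bases 222 to 227, a motif in 13.6% of promoters, and the Ptgds window held TGACTCA, a match to TGANTCA (7.81% of promoters), at bases 216 to 222, and TTACATAA, a match to TTNNGNAA on the other strand, at bases 110 to 117. Of the 9 windows, 5 held the C/EBP motif, 2 the TATA box core (Slco2a1 and Hpgd) and 1 each the shorter cyclic AMP motif, the E-box and the AP-1 motif, while 0 held the full cyclic AMP response element (1.79% of all promoters), the NF-κB motif (1.2%) or the Smad motif (21%).

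Between 0 h and 24 h PCS, Ptgs2 and Slco2a1 rose in both WT and β8ITG-cKO LCs. Ptgds was among the highest transcripts of the lens capsule at both times, with overlapping groups. Ptgs1, Ptges, Hpgd and the 3 receptors stayed below 2 FPKM in every library. At 24 h PCS, β8ITG-cKO LCs had less Slco2a1 than WT LCs, while the Ptgs2 groups overlapped. A gene was tested when its mean over the libraries compared was at least 0.5 FPKM and was called when its adjusted p (limma-trend with Benjamini-Hochberg adjustment over all genes tested) did not exceed 0.05 and the study's size criteria held: group means that differ over 2-fold and by over 2 FPKM, with one of them reaching 2 FPKM. In WT LCs over time, 2 of the 4 genes tested were called, both higher, beside 10.3% of all 15146 genes tested called higher and 3.92% lower. In β8ITG-cKO LCs over time, 2 of 6 were called, both higher, beside 11.3% of 15237 called higher and 3.77% lower. Between the genotypes 1 of 5 was called at 24 h, as lower in β8ITG-cKO, beside 0.286% of 15366 called lower, and 0 of 3 were called at 0 h, beside 2.52% of 14708 called in either direction; at 0 h 0 of the 3 also had an unadjusted p under 0.05. Ptgs2 and Ptges averaged under 0.5 FPKM at 0 h in both genotypes and passed the filter over time through their 24 h libraries alone. So did Ptgs1 in β8ITG-cKO LCs, while Hpgd passed there through its 0 h libraries alone. A gene that passes the filter through the group where it is high alone had to differ. These counts thus do not speak for all 9, and those over time are not read as a result. The median over all genes tested lay 0.16 higher at 24 h in WT and 0.23 higher in β8ITG-cKO LCs on the log2(FPKM + 1) scale, and -0.05 and -0.00 after all libraries were rescaled to the same median, which turned the calls from 1566 higher and 593 lower to 982 and 961 in WT, and from 1719 and 575 to 1172 and 877 in β8ITG-cKO LCs. The p-values measure the spread between these libraries.

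**Figure D1:**
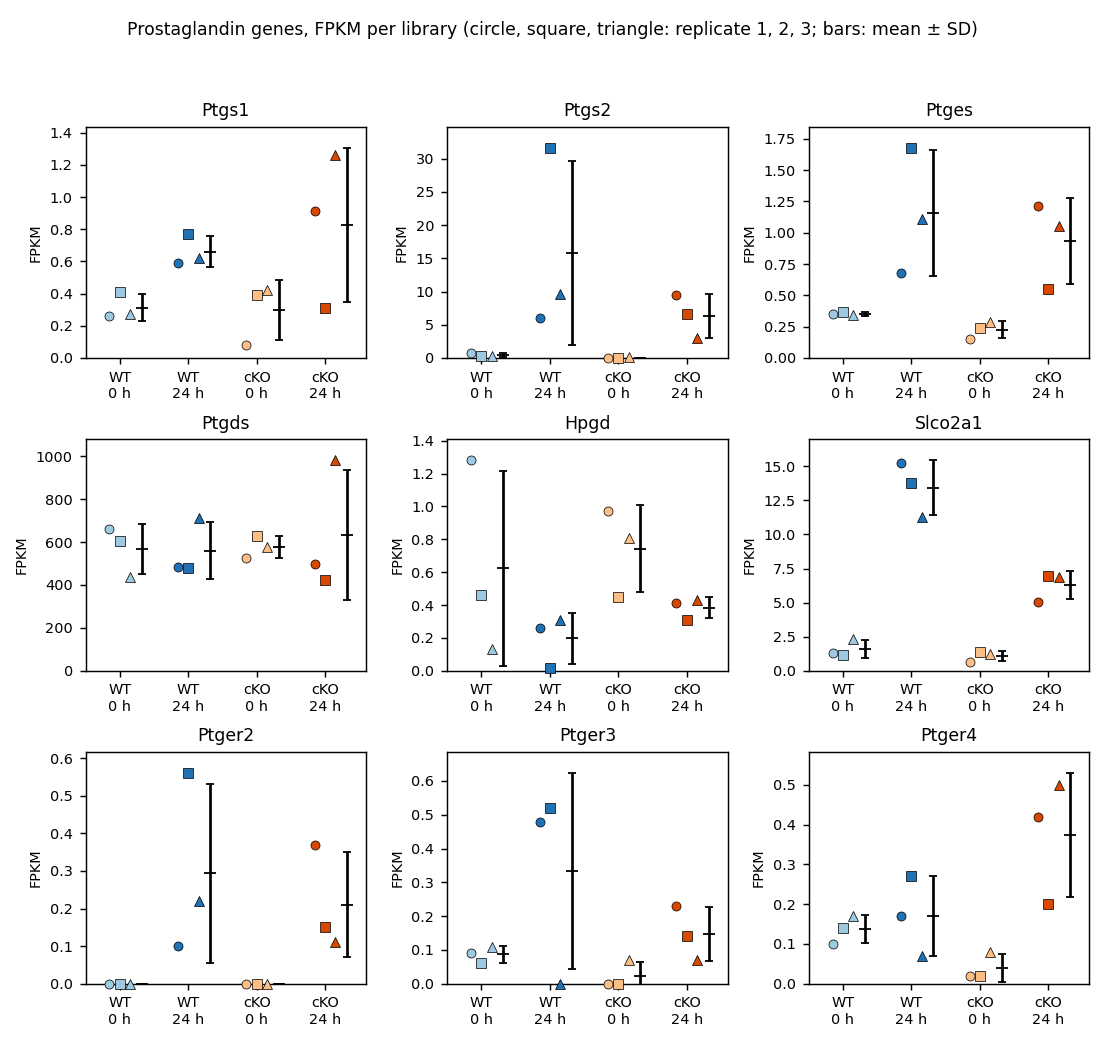
FPKM of the 9 prostaglandin genes (vertical axes, each from 0) in the 12 libraries, by group (cKO: β8ITG-cKO); symbols are replicates and bars the mean ± SD of 3 libraries. Ptgs2 and Slco2a1 lay higher at 24 h in every library of both genotypes, and Ptgds lay between 423.68 and 980.33 FPKM.

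Ptgs2 (chr1:150100031-150108234), the inducible cyclooxygenase, was near the lower end of the scale at 0 h and well above it at 24 h. In WT LCs it was at 0.73, 0.28 and 0.35 FPKM at 0 h, against 6.01, 31.67 and 9.64 FPKM at 24 h PCS. In β8ITG-cKO LCs it was at 0.01, 0.02 and 0.07 FPKM at 0 h, against 9.54, 6.58 and 2.97 FPKM at 24 h PCS. In each genotype the times did not overlap, and WT 24 h replicate 2 stood far above the other libraries. The mean went from 0.451 ± 0.243 to 15.8 ± 13.9 FPKM in WT and from 0.0344 ± 0.0334 to 6.36 ± 3.29 FPKM in β8ITG-cKO LCs (SD, n = 3 each), ratios of 35 and 185 that rest on means below 1 FPKM at 0 h. On the log2(FPKM + 1) scale, which understates changes from so low a level, Ptgs2 rose by 3.23 in WT (standard error 0.50, adjusted p = 0.00368) and by 2.72 in β8ITG-cKO LCs (standard error 0.32, adjusted p = 0.000413). The rise in WT was 2.59 without WT 24 h replicate 2, with an adjusted p of at most 0.0167 whichever library was left out.

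The genotypes differed in where Ptgs2 stood at 0 h, as a description. All 3 β8ITG-cKO 0 h libraries lay below all 3 WT 0 h libraries, as they also did for Ptges and Ptger4, 3 of the 9 genes measured. Of the 14708 genes that passed the filter 12.8% lay lower with no overlap, a share that does not cover genes as low as these. The WT mean of Ptgs2 was 13.1 times the β8ITG-cKO mean. Ptgs2 was under the filter in that comparison. Without the filter its difference was -0.48 (adjusted p = 0.134), and with a pseudocount of 0.1 in place of 1 it was -1.98 (adjusted p = 0.085), an alternative chosen after seeing the data. At 24 h the mean was 2.48 times higher in WT LCs, but the groups overlapped, the difference was -0.98 (95% interval -2.34 to 0.38, adjusted p = 0.402), and it was -0.34 without WT 24 h replicate 2. The change over time differed between the genotypes by -0.51 (95% interval -1.97 to 0.96, adjusted p = 0.696), with 0 of the 5 prostaglandin genes tested for this past the threshold beside 9.39% of 15262 genes, and the interval includes both a smaller and a larger rise in β8ITG-cKO LCs.

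Ptgs1 (chr2:36216744-36252275), the constitutive cyclooxygenase, stayed low. It was at 0.26, 0.41 and 0.27 FPKM in WT 0 h, 0.59, 0.77 and 0.62 FPKM in WT 24 h, 0.08, 0.39 and 0.42 FPKM in β8ITG-cKO 0 h and 0.91, 0.31 and 1.26 FPKM in β8ITG-cKO 24 h libraries. The WT groups did not overlap, though the gene was under the filter there (difference 0.34, adjusted p = 0.0954 without a filter), and the β8ITG-cKO groups overlapped (difference 0.47, standard error 0.23, adjusted p = 0.129, or 0.0312 without β8ITG-cKO 24 h replicate 2). The change over time differed between the genotypes by 0.13 (95% interval -0.49 to 0.75, adjusted p = 0.823).

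Set against Ptgs1, Ptgs2 supplied most of the cyclooxygenase transcript at 24 h PCS in both genotypes. Its share of the summed FPKM of both genes was 73.5%, 40.4% and 56.7% in WT 0 h and 91.1%, 97.6% and 94% in WT 24 h libraries. In β8ITG-cKO LCs it was 10.4%, 5.33% and 14.6% at 0 h and 91.3%, 95.5% and 70.2% at 24 h. The share at 0 h did not overlap between the genotypes, with means of 56.9% ± 16.6 in WT and 10.1% ± 4.64 in β8ITG-cKO LCs (SD, n = 3 each). At 0 h Ptgs1 was at 0.08 to 0.42 FPKM and Ptgs2 at 0.01 to 0.73 FPKM over both genotypes. The 0 h shares thus rest on values near the lower end of the scale, where small shifts in FPKM move them far. A two-sided exact permutation test gave p = 0.1, the smallest that 3 libraries against 3 allow, for the difference in share at 0 h and for both changes over time (0.133 each after Benjamini-Hochberg adjustment over 4 comparisons), and p = 0.5 between the genotypes at 24 h.

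**Figure D2:**
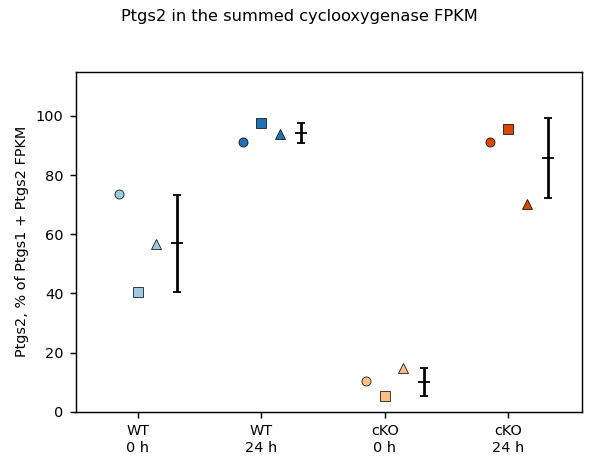
Share of Ptgs2 in the summed FPKM of Ptgs1 and Ptgs2 (vertical axis, percent) in each library by group (cKO: β8ITG-cKO); circle, square and triangle are replicates 1, 2 and 3, and bars are the mean ± SD of 3 libraries. The β8ITG-cKO 0 h libraries sit at 5.33% to 14.6%, below the WT 0 h libraries at 40.4% to 73.5%, and all 24 h libraries sit at 70.2% or more. The 0 h shares are of sums near the lower end of the FPKM scale.

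The summed neutrophil and platelet markers stood higher at 24 h, as Ptgs2 did. The summed FPKM of 8 neutrophil markers was 0.511 to 0.795 in WT 0 h and 44.8 to 62.7 in WT 24 h, and 0.542 to 1.41 in β8ITG-cKO 0 h and 12.1 to 34.1 in β8ITG-cKO 24 h libraries, with 5 of the 8 reaching 1 FPKM and Ly6g listed at 0 in all 12. That of 6 platelet markers was 2.39 to 6.23, 10.3 to 16.1, 1.68 to 3.34 and 9.32 to 16, and that of 8 macrophage markers 7.98 to 16.3, 11.5 to 22.2, 6.96 to 9.78 and 13.3 to 28.1, in the same order of groups. The platelet sum was mostly Pf4, and its members did not move alike: in WT LCs Gp1ba was at 1.05, 0.8 and 0.83 FPKM at 0 h against 0.63, 0.32 and 0.35 FPKM at 24 h, while Gp6 stayed at or below 0.03 FPKM in all libraries. Their part in the changes was not tested. Of 7 mast cell markers, 4 were listed at 0 in every library, among them Cpa3 and Tpsb2. In such bulk samples fewer cells of a type and less RNA per cell cannot be told apart.

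Ptges (chr2:30889471-30903297), the inducible terminal synthase that makes prostaglandin E2 from the product of Ptgs2, lay higher at 24 h than at 0 h in both genotypes without reaching 2 FPKM. It was at 0.35, 0.37 and 0.34 FPKM in WT 0 h, against 0.68, 1.68 and 1.11 FPKM in WT 24 h libraries. In β8ITG-cKO LCs it was at 0.15, 0.24 and 0.29 FPKM at 0 h, against 1.21, 0.55 and 1.05 FPKM at 24 h. The times did not overlap in either genotype (31.3% of all genes tested lay higher at 24 h with no overlap in WT and 42.9% in β8ITG-cKO LCs). Ptges, like Ptgs2, passed the filter over time through its 24 h libraries alone and so had to lie higher there. No count of genes without overlap is drawn on. The difference over time was 0.65 in WT (standard error 0.21, adjusted p = 0.0536) and 0.64 in β8ITG-cKO LCs (standard error 0.17, adjusted p = 0.0169), and it differed between them by -0.00 (95% interval -0.59 to 0.58, adjusted p = 0.997). The WT value passed in 3 of 12 alternatives, with adjusted p from 0.0167 to 0.158, and the β8ITG-cKO value missed it without β8ITG-cKO 0 h replicate 1 (adjusted p = 0.0508). In RefSeq the lncRNA Gm52550 lies within the span of Ptges and overlaps one end of the shorter span in the deposited tables, and reads of both cannot be told apart where the strand setting of the counting is not stated.

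Ptgds (chr2:25466709-25470110), which makes prostaglandin D2 and is secreted as the lipocalin β-trace into ocular and cerebrospinal fluid, was by far the highest of the 9. In WT LCs it was at 662.39, 605.91 and 434.89 FPKM at 0 h, against 483.74, 480.17 and 711.99 FPKM at 24 h. In β8ITG-cKO LCs it was at 527.01, 628.03 and 575.9 FPKM at 0 h, against 496.64, 423.68 and 980.33 FPKM at 24 h. It ranked between 43 and 104 among all 45859 genes of a library. No pair of groups was separated, and the differences were -0.03 over time in WT (95% interval -0.61 to 0.56, adjusted p = 0.948), 0.04 over time in β8ITG-cKO LCs (-0.64 to 0.72, adjusted p = 0.928), 0.04 between the genotypes at 0 h (-0.38 to 0.46, adjusted p = 0.911) and 0.11 at 24 h (-0.69 to 0.90, adjusted p = 0.897). These intervals leave room for changes of either sign. Other tissues of the eye are known to make Ptgds, and the summed FPKM of 8 pigment cell markers was 13.3 to 87.2 over the libraries, lowest in β8ITG-cKO 24 h replicate 3, where Ptgds was highest. The photoreceptor sum of that library was 995 FPKM, beside 999 and 855 FPKM in the other β8ITG-cKO 24 h libraries. Its summed markers of corneal and iris stroma were at 121 FPKM beside 98.8 and 117 FPKM, and among them Col1a2, named after its values were seen, was at 19.3 FPKM beside 8.02 and 5.51 FPKM. The other stroma markers were not raised alike. Col6a3 was at 86.15 FPKM beside 80.34 and 95.22 FPKM, and Pdgfra at 15.49 FPKM beside 10.09 and 15.14 FPKM. Dcn was at 0.24 FPKM beside 0.18 and 0.9 FPKM, Lum at 0.02 FPKM beside 0.12 and 0 FPKM, and Kera at 0 in these libraries. The part of these tissues in the Ptgds levels was not tested.

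Hpgd (chr8:56294552-56321046), the dehydrogenase that starts prostaglandin breakdown, was low and varied among replicates. It was at 1.28, 0.46 and 0.13 FPKM in WT 0 h, 0.26, 0.02 and 0.31 FPKM in WT 24 h, 0.97, 0.45 and 0.81 FPKM in β8ITG-cKO 0 h and 0.41, 0.31 and 0.43 FPKM in β8ITG-cKO 24 h libraries. The β8ITG-cKO groups did not overlap (14.0% of genes tested lay lower at 24 h with no overlap), with a difference of -0.33 (standard error 0.16, adjusted p = 0.127). In WT the groups overlapped and the gene was under the filter (difference -0.39, adjusted p = 0.427 without one). Between the genotypes at 0 h the difference was 0.16 (95% interval -0.47 to 0.78, adjusted p = 0.763).

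Slco2a1 (chr9:103007667-103087849), the carrier that takes prostaglandins up from the fluid around cells for breakdown inside them, rose in both genotypes. In WT LCs it was at 1.33, 1.15 and 2.36 FPKM at 0 h, against 15.24, 13.76 and 11.26 FPKM at 24 h. In β8ITG-cKO LCs it was at 0.67, 1.35 and 1.27 FPKM at 0 h, against 5.08, 6.95 and 6.85 FPKM at 24 h. The 24 h libraries all lay above the 0 h libraries, and at 24 h every WT library lay above every β8ITG-cKO library. The rise was 2.48 in WT (standard error 0.21, adjusted p = 0.000366, mean ratio 8.31) and 1.81 in β8ITG-cKO LCs (standard error 0.18, adjusted p = 0.000186, mean ratio 5.74), and it kept its adjusted p under 0.05 in all 13 alternatives of each.

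At 24 h PCS Slco2a1 was 2.13 times higher in WT than in β8ITG-cKO LCs, at 13.4 and 6.29 FPKM on average, a difference of -0.98 (standard error 0.17, 95% interval -1.38 to -0.59, adjusted p = 0.0152). It was the only one of the 5 genes tested there whose groups did not overlap, beside 9% of all genes tested that lay lower in β8ITG-cKO with no overlap. The call rests close to its thresholds. The adjusted p was 0.0544 without WT 24 h replicate 2, 0.0614 without β8ITG-cKO 24 h replicate 1 and 0.0527 without β8ITG-cKO 24 h replicate 2, and without WT 24 h replicate 1 the ratio of means fell under the size criterion. At 0 h the groups overlapped (difference -0.31, 95% interval -0.82 to 0.20, adjusted p = 0.432). The change over time was smaller in β8ITG-cKO LCs by 0.68 with an unadjusted p of 0.0366, which did not pass adjustment over 15262 genes (adjusted p = 0.17). The comparisons share the WT 24 h and β8ITG-cKO 24 h libraries and are not independent of each other.

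Vascular endothelium is a well-known site of Slco2a1, and the sum of its markers stood in another order of groups, though its members did not move alike. In WT LCs Cdh5 was at 0.09, 0.04 and 0.02 FPKM at 0 h, against 0.21, 0.57 and 0.46 FPKM at 24 h. Kdr was at 1.25, 3.79 and 0.42 FPKM at 0 h in WT, against 0.27, 0.35 and 1.21 FPKM at 24 h. The summed FPKM of 8 endothelial markers, of which 3 reached 1 FPKM, was 1.26 to 4.89 in WT 0 h, 0.961 to 2.7 in WT 24 h, 1.88 to 2.62 in β8ITG-cKO 0 h and 6.17 to 8.57 in β8ITG-cKO 24 h libraries, with Kdr at 2.76, 3.18 and 5.21 FPKM in the last of these. Summed neutrophil markers were lower in β8ITG-cKO than in WT libraries at 24 h, as Slco2a1 was. That sum was mostly S100a8 and S100a9. Of its other members Cxcr2 did not overlap between the genotypes at 24 h. Csf3r did, at 8.8, 8.12 and 10.96 FPKM in WT against 6, 3.51 and 9.15 FPKM in β8ITG-cKO libraries. The part of endothelium or neutrophils in the levels of Slco2a1 was not tested. The snoRNA Gm22595 lies within the locus in RefSeq.

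**Figure D3:**
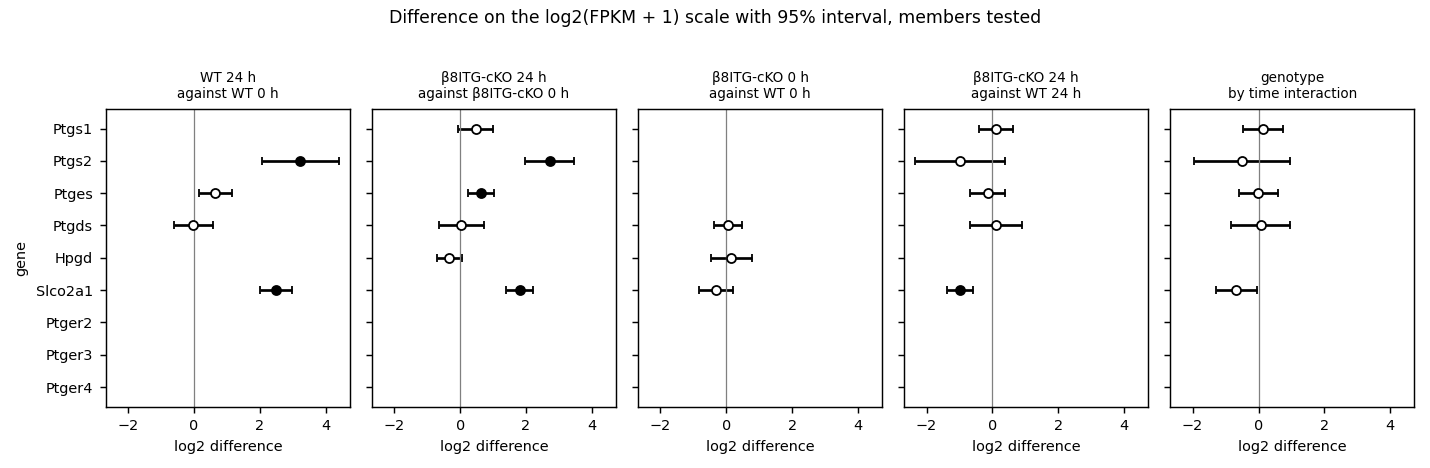
Differences on the log2(FPKM + 1) scale (horizontal axes) with 95% intervals for the prostaglandin genes tested in each comparison, and for the difference between genotypes in the change over time; filled points have an adjusted p of at most 0.05, and a missing point was under the filter of 0.5 FPKM. Ptgs2 and Slco2a1 lie well to the right in both comparisons over time, and Slco2a1 alone is filled at 24 h between the genotypes, at -0.98.

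The prostaglandin E2 receptors Ptger2, Ptger3 and Ptger4 were near the lower end of what the libraries show. Ptger2 (chr14:44988111-45003820), the EP2 receptor, was listed at 0 in all 6 libraries of 0 h, at 0.1, 0.56 and 0.22 FPKM in WT 24 h and at 0.37, 0.15 and 0.11 FPKM in β8ITG-cKO 24 h libraries. Ptger3 (chr3:157566816-157644758), the EP3 receptor, was at 0.09, 0.06 and 0.11 FPKM in WT 0 h, 0.48, 0.52 and 0 FPKM in WT 24 h, 0, 0 and 0.07 FPKM in β8ITG-cKO 0 h and 0.23, 0.14 and 0.07 FPKM in β8ITG-cKO 24 h libraries. Ptger4 (chr15:5233399-5244187), the EP4 receptor, was at 0.1, 0.14 and 0.17 FPKM in WT 0 h, 0.17, 0.27 and 0.07 FPKM in WT 24 h, 0.02, 0.02 and 0.08 FPKM in β8ITG-cKO 0 h and 0.42, 0.2 and 0.5 FPKM in β8ITG-cKO 24 h libraries. None of the 3 receptors passed the filter in any comparison. With no filter, Ptger4 was higher at 24 h in β8ITG-cKO LCs by 0.39 (adjusted p = 0.0273) and Ptger2 by 0.27 (adjusted p = 0.0584), against 0.04 (adjusted p = 0.742) and 0.36 (adjusted p = 0.137) in WT LCs. With no filter and a pseudocount of 0.1, Ptger2 was higher at 24 h by 1.81 in WT (adjusted p = 0.0476) and by 1.55 in β8ITG-cKO LCs (adjusted p = 0.0178), a choice made after seeing the data. The change of Ptger4 over time did not differ between the genotypes past adjustment (0.35 with no filter, adjusted p = 0.15).

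Of the 6 other prostanoid receptors, Ptger1, also a receptor of prostaglandin E2, passed the filter in every comparison, and 5 did not, so the low levels given here do not describe all receptors of the family. The thromboxane receptor Tbxa2r, the prostaglandin F receptor Ptgfr, the prostacyclin receptor Ptgir and the prostaglandin D receptors Ptgdr and Ptgdr2 stayed at or below 0.74 FPKM.

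Upstream and beside these genes, the enzymes that free arachidonate and finish prostaglandins changed in both directions. Of 12 genes of arachidonate release, 6 were tested over time in WT LCs, with 2 higher and 1 lower at an adjusted p of at most 0.05, and 6 in β8ITG-cKO LCs, with 1 higher and 3 lower (20.9% and 8.81% of all genes tested higher and lower in WT, 35.4% and 10.7% in β8ITG-cKO LCs). Their median difference was 0.37 in WT and -0.07 in β8ITG-cKO LCs, beside 0.16 and 0.23 over all genes tested. Pla2g2e in WT and Pla2g4b in β8ITG-cKO LCs passed the filter through their 24 h libraries alone. Of the 2 higher in WT LCs, Pla2g6, named after its values were seen, did not pass without WT 0 h replicate 1 or 3 or WT 24 h replicate 1 or 2 (adjusted p from 0.0773 to 0.0984), with no filter (0.0659) or after rescaling (0.0549). Pla2g5, a secreted phospholipase A2, fell by 1.64 in WT (adjusted p = 0.00439) and by 1.10 in β8ITG-cKO LCs (adjusted p = 0.0137), from 29.09 to 40.61 FPKM down to 6.93 to 15.62 FPKM in WT. Pla2g4a, the cytosolic phospholipase A2 that supplies both cyclooxygenases, was at 5.33, 5.04 and 4.85 FPKM in WT 0 h, 11.54, 9.17 and 7.78 FPKM in WT 24 h, 10.53, 11.3 and 12.32 FPKM in β8ITG-cKO 0 h and 9.23, 9.02 and 8.23 FPKM in β8ITG-cKO 24 h libraries. At 0 h it was thus higher in β8ITG-cKO LCs, with no overlap (difference 1.03, standard error 0.11, adjusted p = 0.00337), and similar in range at 24 h (difference -0.08, 95% interval -0.46 to 0.29, adjusted p = 0.825).

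Among 7 other terminal synthase genes measured, 5 were tested. In WT LCs over time 2 were called higher and 1 lower, beside 10.3% and 3.92% of all genes tested. In β8ITG-cKO LCs 0 were called higher and 1 lower, beside 11.3% and 3.77%. By adjusted p alone 3 were higher and 2 lower in β8ITG-cKO LCs, beside 35.4% and 10.7% of all genes tested. Their median differences were 0.46 and 0.65, and Tbxas1 passed the filter in β8ITG-cKO LCs through its 24 h libraries alone. Ptges2 and Ptges3, the other prostaglandin E synthases, rose in WT LCs by 1.59 (adjusted p = 0.00202) and 0.99 (adjusted p = 0.0108). In β8ITG-cKO LCs they rose by 0.73 (adjusted p = 0.000924) and 0.88 (adjusted p = 0.000448). Fam213b, which makes prostaglandin F2α and is also named Prxl2b, fell by 0.94 in WT (adjusted p = 0.00327) and by 0.76 in β8ITG-cKO LCs (adjusted p = 0.0437), and Akr1b3, the aldose reductase that also makes prostaglandin F2α, fell by 1.36 in β8ITG-cKO LCs (adjusted p = 0.000208) and differed by -0.68 in WT LCs (adjusted p = 0.0819, or 0.0266 after rescaling). The fall of Fam213b in β8ITG-cKO LCs did not pass with any 1 of 4 libraries left out, β8ITG-cKO 0 h replicates 1 and 3 and β8ITG-cKO 24 h replicates 2 and 3 (adjusted p from 0.0854 to 0.125), nor with no filter (0.113, or 0.0995 with a pseudocount of 0.1).

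All 4 prostaglandin reductases measured were tested, and their median differences were 0.22 in WT and -0.30 in β8ITG-cKO LCs. By adjusted p alone 1 was higher and 1 lower in WT, beside 20.9% and 8.81% of all genes tested. In β8ITG-cKO LCs 0 were higher and 3 lower, beside 35.4% and 10.7%. None was called, beside 10.3% higher and 3.92% lower of all genes tested in WT and 11.3% and 3.77% in β8ITG-cKO LCs. These counts moved with single libraries, in genes named after their values were seen: in β8ITG-cKO LCs Zadh2 did not pass with any 1 of the 6 libraries left out (adjusted p from 0.0687 to 0.126), with no filter (0.0556) or in 1 fit over all libraries (0.0975), and Ptgr2 did not pass without β8ITG-cKO 0 h replicate 1 or 3 or any 1 of the 24 h libraries (0.0634 to 0.09). In WT LCs Ptgr1 did not pass without WT 0 h replicate 1 (0.073), without WT 24 h replicate 1 (0.0572) or with no filter (0.0664). Of 4 other carriers 3 were tested, with medians of 0.58 in WT and 0.64 in β8ITG-cKO LCs. By adjusted p 1 was higher in WT and 2 in β8ITG-cKO LCs, beside 20.9% and 35.4% of all genes tested. Slco4a1, an organic anion carrier, rose in β8ITG-cKO LCs by 1.64 (adjusted p = 0.000616), from 1.3, 0.35 and 0.78 FPKM to 5.41, 3.95 and 4.27 FPKM, and differed by -0.02 in WT LCs (adjusted p = 0.964). Photoreceptor markers were also high in the β8ITG-cKO 24 h libraries and in WT 0 h replicate 2. There Slco4a1 was at 3.56 FPKM, beside 1.79 and 0.88 FPKM in WT 0 h replicates 1 and 3. In WT 24 h libraries, at photoreceptor sums of 74.3, 131 and 136 FPKM, it was at 1.15, 2.78 and 1.8 FPKM. In β8ITG-cKO 0 h libraries, at higher photoreceptor sums of 331, 179 and 265 FPKM, Slco4a1 was at 1.3, 0.35 and 0.78 FPKM. The part of photoreceptors was not tested.

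The lipoxygenase branch uses the same arachidonate to make leukotrienes and hydroxy acids. Of its 13 genes, 4 were tested over time in each genotype. Alox5ap and Alox15 in both genotypes, and Alox12 in β8ITG-cKO LCs, averaged under 0.5 FPKM at 0 h and passed the filter through their 24 h libraries alone, so that they had to lie higher at 24 h, and no count over these genes is drawn on. Alox15, the 12/15-lipoxygenase, rose by 2.12 in WT (adjusted p = 0.015) and by 2.37 in β8ITG-cKO LCs (adjusted p = 1.37e-05), to 6.64, 8.92 and 1.4 FPKM and to 5.7, 5.29 and 4.67 FPKM, though the WT rise had an adjusted p of 0.0528 without WT 0 h replicate 1 and of 0.0608 with no filter. Alox5ap, the partner protein of 5-lipoxygenase and abundant in leukocytes, rose by 1.78 in WT (adjusted p = 0.000627) and by 0.94 in β8ITG-cKO LCs (adjusted p = 0.00387). At 24 h it measured 2.76, 2.94 and 3.68 FPKM in WT against 1.43, 1.02 and 1.14 FPKM in β8ITG-cKO LCs, a difference of -0.91 (adjusted p = 0.0163). The direction was that of the summed neutrophil markers, mostly S100a8 and S100a9, whose part was not tested. Without β8ITG-cKO 24 h replicate 2 or 3 the adjusted p was 0.0852 or 0.0713, and with no filter 0.0548. Alox12, the platelet lipoxygenase, rose by 1.15 in WT (adjusted p = 0.0191) and by 0.72 in β8ITG-cKO LCs (adjusted p = 0.0309), and it overlaps Rnasek, at 15.34 to 33.2 FPKM. The Alox12 rise did not pass in WT LCs without WT 0 h replicate 2 or 3 (adjusted p = 0.0524 and 0.0604) or with no filter (0.0668), nor in β8ITG-cKO LCs after rescaling (0.0684), with no filter (0.0732 with a pseudocount of 1 and 0.0883 with 0.1) or without β8ITG-cKO 0 h replicate 2 or 3 (0.0673 and 0.0996) or β8ITG-cKO 24 h replicate 1 or 2 (0.0951 and 0.086). Lta4h, the fourth of them, was named after its values were seen: its β8ITG-cKO difference of 0.39 (adjusted p = 0.0123) was 0.11 after rescaling (adjusted p = 0.405).

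**Figure D4:**
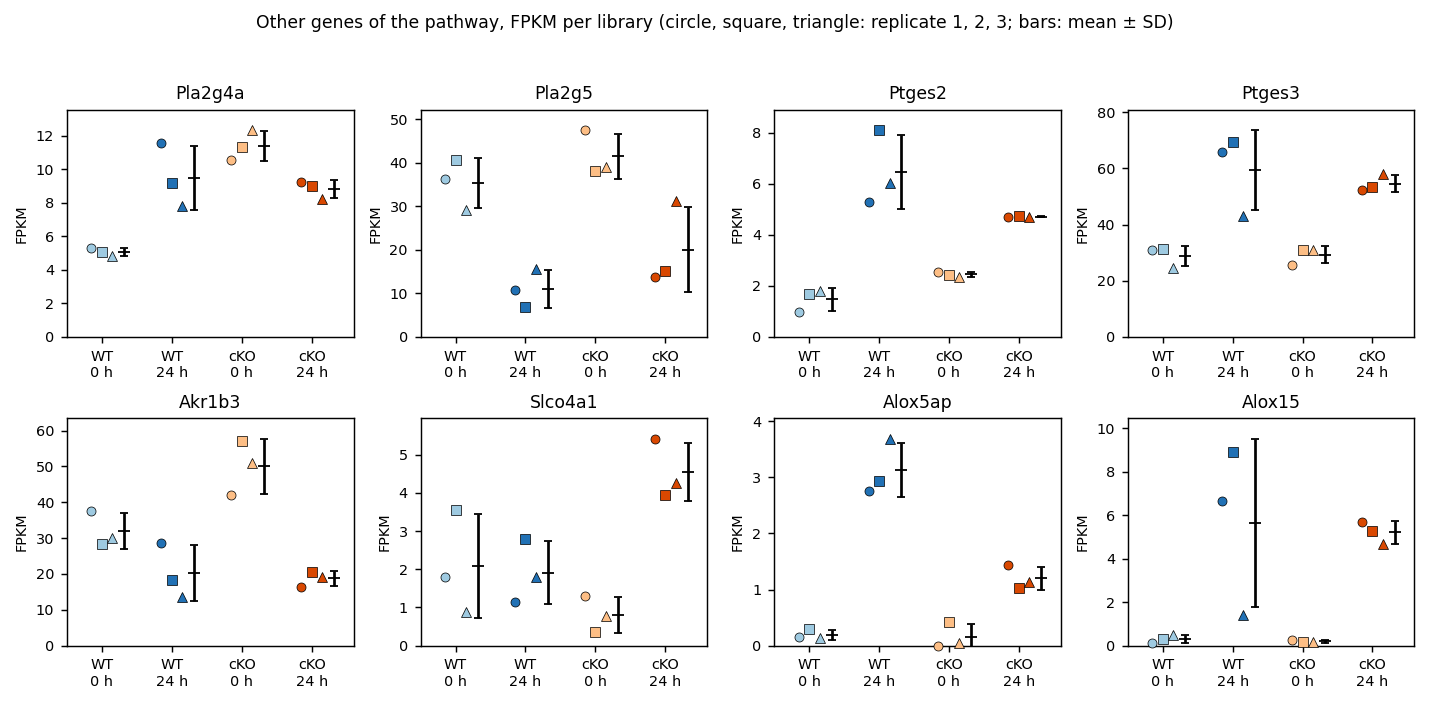
FPKM (vertical axes, each from 0) of 8 other genes of the pathway in the 12 libraries, by group (cKO: β8ITG-cKO); symbols are replicates and bars the mean ± SD of 3 libraries. Pla2g4a stands at 10.53 to 12.32 FPKM in β8ITG-cKO 0 h against 4.85 to 5.33 FPKM in WT 0 h libraries, and Slco4a1 is highest in the β8ITG-cKO 24 h libraries.

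For the 3 genes that averaged 2 FPKM or more over all libraries, the transcripts most alike were found by Pearson correlation of log2(FPKM + 1) over the 12 libraries, which share the step from 0 h to 24 h, so that any gene that rose in both genotypes scores high. For Ptgs2 they were F3, the tissue factor that starts coagulation (r = 0.991), Tbrg4 (r = 0.988) and Adamts9, a secreted metalloproteinase (r = 0.982). F3 averaged 1.93 and 20.1 FPKM in WT and 1.36 and 9.23 FPKM in β8ITG-cKO LCs at 0 h and 24 h. For Slco2a1 they were Nln, a metallopeptidase (r = 0.984), Tmbim1 (r = 0.981) and Ifi204, an interferon-induced gene (r = 0.981), which averaged 0.464 and 10.1 FPKM in WT and 0.277 and 5.73 FPKM in β8ITG-cKO LCs. For Ptgds they were Mageh1 (r = 0.919), Vstm4 (r = 0.87) and Gpx3, a secreted glutathione peroxidase (r = 0.862). Only transcripts that averaged 2 FPKM or more were compared. These correlations describe the 12 libraries only.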

How the data were processed

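RNA from lens capsules with attached LCs was measured in 12 libraries. The authors deposited FPKM for each library and gene, made with Cuffdiff 2.2.1 after cutadapt 1.12 and TopHat2 2.1.0 on mm10 (GRCm38.p5), per the submitters' processing notes, in 4 tables that each hold a pair of groups. Each library's FPKM agreed exactly between the tables that share it (12 of 12 checked). A stranded total RNA kit was used, and the strand setting of the counting and the scaling between libraries are not given in the sources used here. The tables also hold Cuffdiff's own group estimates and comparisons, which were not used. Read totals were not used, so the depth is unknown.

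Each pair of groups was fitted here with limma 3.58.1 (limma-trend with eBayes, R 4.3.3) on log2(FPKM + 1), keeping those genes that averaged 0.5 FPKM or more in the 6 libraries, with Benjamini-Hochberg adjustment, and the difference between the changes over time as the interaction in 1 fit over 12 libraries. The fit was tested on simulated data. Named were the 9 genes in every comparison, genes of 6 pathway lists called in any, all prostanoid receptors (the values of Ptger1 are not reported here), the 3 transcripts most alike, and Itgb8, with 11 marker lists as sums. The genes and lists were chosen with earlier results of these data known. Alternatives were a pseudocount of 0.1, no filter, a mean of at least 2 FPKM, rescaling to the same median, 1 fit over all libraries, the replicate number as a block, adjusted p alone and each library left out. No filter with a pseudocount of 0.1 was added after seeing the data. Promoters are from RefSeq. Tables were handled in Python 3.11.15 with numpy 2.4.6 and pandas 2.3.3, exact tests run with scipy 1.17.1 and plots drawn with matplotlib 3.10.9.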

Additional observations from a re-analysis of the deposited data

Results flagged for a closer look

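The changes from 0 h to 24 h PCS differed between the genotypes in 4 genes of the pathway lists, by the interaction of genotype and time (limma-trend, adjusted p at most 0.05), beside 9.39% of all 15262 genes tested. They were 1 of 6 genes tested of arachidonate release, 1 of 5 other terminal synthases, 1 of 3 other carriers and 1 of 4 lipoxygenase branch genes. Of the 4 reductases and the 1 other receptor tested, 0 passed. The changes differed in none of the 5 prostaglandin genes tested (0 of them at an adjusted p of at most 0.05, 1, Slco2a1, at an unadjusted p under 0.05). For Pla2g4a the change in β8ITG-cKO LCs was lower than in WT by -1.11 (standard error 0.19, adjusted p = 0.00745): it rose by 0.77 in WT (adjusted p = 0.0123) and fell by 0.33 in LCs of β8ITG-cKO mice (adjusted p = 0.0284, or 0.0647 without β8ITG-cKO 0 h replicate 2, 0.108 without replicate 3 of that group, and 0.0655 and 0.0744 without β8ITG-cKO 24 h replicate 2 or 3). That difference kept an adjusted p of at most 0.0232 in all 18 alternatives. For Ptges2 the difference was -0.86 (adjusted p = 0.0383), past the threshold in 8 of 18 alternatives. For Slco4a1 it was 1.67 (adjusted p = 0.0372), past it in 7 of 18. Photoreceptor markers, whose part was not tested, were high in the β8ITG-cKO 24 h libraries, as Slco4a1 was. For Alox5ap the difference was -0.84 (adjusted p = 0.0468), past the threshold in 1 of 17, with adjusted p up to 0.623. Groups of 3 libraries are too small for a check of single libraries that stand apart.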

How the results depend on the processing

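The rises of Ptgs2 and Slco2a1 over time kept their direction and an adjusted p of at most 0.0223 under every alternative run. By adjusted p alone, 4500 genes passed in WT and 7030 in β8ITG-cKO LCs over time, and 966 at 24 h and 1020 at 0 h between the genotypes. Counts of calls that moved by over 1.5 times were those at 0 h between the genotypes (371 as reported), with 130 without a filter, 165 without a filter and with a pseudocount of 0.1, and 125 to 378 with 1 library left out, lowest without β8ITG-cKO 0 h replicate 3; those at 24 h (562), with 371 to 638 with 1 library left out, lowest without β8ITG-cKO 24 h replicate 2; and those of the interaction (1433), with 930 at a mean of at least 2 FPKM and 688 to 1921 with 1 library left out, lowest without β8ITG-cKO 0 h replicate 2. The cause was not tested. The number of prostaglandin genes called at 24 h between the genotypes (1) ranged from 0 to 1 with 1 library left out.

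With the replicate number as a block, 0 prostaglandin genes were called at 24 h (Slco2a1, adjusted p = 0.0592) and 224 genes at 0 h between the genotypes. No other count of calls moved by over 1.5 times. By adjusted p alone, 269 genes passed with the block at 0 h between the genotypes, against 1020 without it. Among named pathway genes, Alox5ap at 24 h (adjusted p = 0.0571), the falls of Pla2g4a (0.0702), Ptgr2 (0.0789) and Zadh2 (0.0977) in β8ITG-cKO LCs and the interactions of Slco4a1 (0.0588) and Alox5ap (0.0787) no longer passed, and the fall of Akr1b3 in WT LCs passed (0.0381). Libraries with the same number correlated at -0.218 to 0.082 in their deviations from the group means, so the numbers do not pair them.

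Some differences that passed no test changed sign with 1 library left out: Ptgds from -0.21 to 0.10 in WT over time, from -0.33 to 0.28 in β8ITG-cKO LCs over time, from -0.14 to 0.16 at 0 h, from -0.26 to 0.35 at 24 h and from -0.30 to 0.30 in the interaction; Hpgd from -0.08 to 0.43 at 0 h; Ptgs1 from -0.07 to 0.33 and Ptges from -0.31 to 0.02 at 24 h; and in the interaction Ptgs2 from -0.98 to 0.13 and Ptges from -0.17 to 0.17. With a pseudocount of 0.1, with or without the filter, the interaction was 0.89 for Ptgs2 and 0.23 for Ptges. Rescaling to the same median gave -0.26 for Ptgds in β8ITG-cKO LCs over time. How far depth limits values under 0.5 FPKM, such as those of Ptger2, Ptger3 and Ptger4, was not tested, since read totals were not used.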
